A study of Homo sapiens with 12 samples.

Results

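Genes that carry carbon from citrate and acetate through cytosolic acetyl-CoA into fatty acids were followed across a siRNA experiment in human keratinocytes. The 10 genes, ACLY, ACSS2, ACACA, FASN, SCD, ELOVL1, ELOVL6, FADS1, FADS2 and SREBF1, were taken by name from a count table of 58735 genes. All 10 were among the 14920 genes that passed a filter on low counts, and they were chosen by name, with earlier results of these data known. Messenger RNA with a poly-A tail was sequenced in bulk from N/TERT-2G cells, an immortalised line of skin keratinocytes, in a series on vulvar lichen sclerosus. Cells grown in keratinocyte serum-free medium in 6-well plates were transfected with 100 pmol of siRNA per well and 5 μl of a lipid reagent, and the medium was changed after 6 h. The siRNA was directed against ATF3, a stress-induced transcription factor, against APOE, a lipid carrier of lipoproteins, or against CXCL14, a chemokine of epithelia, and cells given a negative control siRNA served for comparison. The 4 groups hold 3 libraries each, 12 in all, and all of them went through the same transfection. Everything reported here therefore describes 1 cell line, and the siRNA sequences and the time from transfection to RNA extraction are not stated. Whether the 3 libraries of a group came from separate cultures is not stated either, so p-values measure the spread between libraries, which may be technical.

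Cytosolic acetyl-CoA is made from citrate by ATP citrate lyase (ACLY) or from acetate by acyl-CoA synthetase short-chain family member 2 (ACSS2). Acetyl-CoA carboxylase (ACACA) turns it into malonyl-CoA, fatty acid synthase (FASN) builds palmitate from both, and desaturases and elongases then shape the chain. Many of these genes are targets of SREBP-1, a transcription factor encoded by SREBF1 that is made as a membrane protein and acts in the nucleus once cleaved. In the epidermis, long and very long fatty acids enter the ceramides of the water barrier.

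Promoter sequence was examined because SREBP-1 and ATF3 are both DNA-binding factors, the first recognising sterol regulatory elements and the second cyclic AMP response elements (CRE) and AP-1 sites. RefSeq start sites on GRCh38.p14 were found for 9 of the 10 genes, in 14 windows that run from 250 bases before to 50 bases after a start. FASN was the gene without a window, so its promoter was not searched. The 250 bases before 1 start are shown for ACLY (chr17:41918952-41919201, minus strand), ACSS2 (chr20:34876362-34876611, plus strand) and ELOVL6 (chr4:110198616-110198865, minus strand), whose group levels ranged most widely. FADS1 (chr11:61817004-61817253, minus strand) is shown because it alone of the 14 windows held a full CRE. Each is written from 5′ to 3′ toward the start site, and capitals mark matches, on either strand, to the CCAAT box, the GC box GGGCGG or the CRE.
ACLY: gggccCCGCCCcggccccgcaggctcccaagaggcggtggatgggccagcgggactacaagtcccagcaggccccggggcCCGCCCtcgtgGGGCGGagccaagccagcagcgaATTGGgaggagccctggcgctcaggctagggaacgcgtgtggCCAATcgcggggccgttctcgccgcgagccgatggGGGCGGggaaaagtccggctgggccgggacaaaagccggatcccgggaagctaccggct
ACSS2: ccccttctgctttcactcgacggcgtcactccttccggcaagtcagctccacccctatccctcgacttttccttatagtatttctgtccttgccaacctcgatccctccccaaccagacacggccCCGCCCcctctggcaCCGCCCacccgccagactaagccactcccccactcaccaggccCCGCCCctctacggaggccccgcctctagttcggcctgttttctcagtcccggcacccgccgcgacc
ELOVL6: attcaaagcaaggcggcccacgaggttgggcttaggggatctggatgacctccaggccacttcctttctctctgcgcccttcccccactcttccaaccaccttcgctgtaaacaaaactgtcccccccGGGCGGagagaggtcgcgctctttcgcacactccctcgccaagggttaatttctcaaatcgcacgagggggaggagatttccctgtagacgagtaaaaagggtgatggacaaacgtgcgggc
FADS1: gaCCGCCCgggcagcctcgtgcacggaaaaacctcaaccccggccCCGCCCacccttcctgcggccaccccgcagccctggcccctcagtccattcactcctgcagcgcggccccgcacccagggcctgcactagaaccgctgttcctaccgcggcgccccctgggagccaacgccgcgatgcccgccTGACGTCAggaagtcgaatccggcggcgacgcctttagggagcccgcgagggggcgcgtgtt
The ACLY window shown held 2 CCAAT boxes, at -136 and -94 from the start, and 4 GC boxes, between -245 and -59. Counted from the other ACLY start, the same boxes lay at -65 and -23 and between -174 and 12. Of all 35116 windows in the table, 10.8% held at least 2 CCAAT boxes and 9.06% at least 4 GC boxes. Such counts were not particular to ACLY among the 10 genes. An ACACA window and the SCD window also held 2 CCAAT boxes. Other ACACA windows held 7 and 6 GC boxes and the ELOVL1 window 5. The ACSS2 window shown held 3 GC boxes and the ELOVL6 window 1. At least 1, 2 and 3 GC boxes were in 45%, 26.7% and 15.8% of all windows. The FADS1 window held 2 GC boxes and the CRE, TGACGTCA, at -62, and 1.85% of all windows held that motif. TGACGT, its first 6 letters, was found on either strand in 7.98% of all windows. Of the 14 windows it was in that of FADS1, within the full CRE, and in the ACSS2 window, 27 bases after the start and so beyond the part shown. None of the 14 windows held the sterol element letters TCACNCCAC, the E-box CACGTG or the AP-1 site TGANTCA, which were in 1.13%, 7.26% and 7.71% of all windows. A match or its absence describes these letters in these windows alone.

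The libraries held 16225691 to 22246755 counts, at which 3 counts correspond to 0.136 to 0.191 CPM (the count scaled to a common library total), and every member was far above that floor in every library. Each siRNA lowered its own target, with an adjusted p in edgeR of 1.37e-09 for ATF3, 1.67e-07 for APOE and 0.0143 for CXCL14. ATF3 had 12.02, 12.5 and 11.5 CPM with ATF3 siRNA, against 43.0, 43.0 and 40.5 CPM in control cells. APOE had 0.106, 0.274 and 0.191 CPM with APOE siRNA, against 2.78, 3.59 and 3.16 CPM in control cells. CXCL14 was close to the floor in both groups, with 1, 1 and 0 counts with CXCL14 siRNA, against 7, 6 and 11 counts in control cells. The targets also moved with other siRNAs: CXCL14 was 17.5 times its control mean with APOE siRNA (adjusted p = 3.48e-06), and ATF3 and APOE were 1.62 and 1.85 times theirs with CXCL14 siRNA (adjusted p = 4.96e-07 and 0.00144). Levels below are CPM scaled by the TMM method. Differences are log2 fold changes with their SE from 1 edgeR quasi-likelihood fit over all 12 libraries, called at a Benjamini-Hochberg adjusted p under 0.05 over the 14920 genes. All 3 comparisons with the control use the same 3 control libraries, so they are not independent of each other. In bulk RNA, fewer cells with a transcript and less of it per cell cannot be told apart.

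Against the control, 4 of the 10 genes rose and 0 fell with ATF3 siRNA, where 11.2% of all genes tested were called higher and 9.14% lower. That 0 is edgeR's count. At an unadjusted p under 0.05 it was 1, and DESeq2 also called 1. With APOE siRNA 6 rose and 2 fell, beside 22.3% and 22.5% of all genes, and with CXCL14 siRNA 6 rose and 2 fell, beside 27.4% and 28.4%. Over the 10 genes the median log2 fold change was 0.133, 0.319 and 0.252 with ATF3, APOE and CXCL14 siRNA, beside medians of 0.0032, 0.0117 and 0.0132 over all genes. ACLY, SCD, FADS2 and SREBF1 rose with each siRNA, while ACACA and ELOVL1 were called with none of them.

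**Figure D1:**
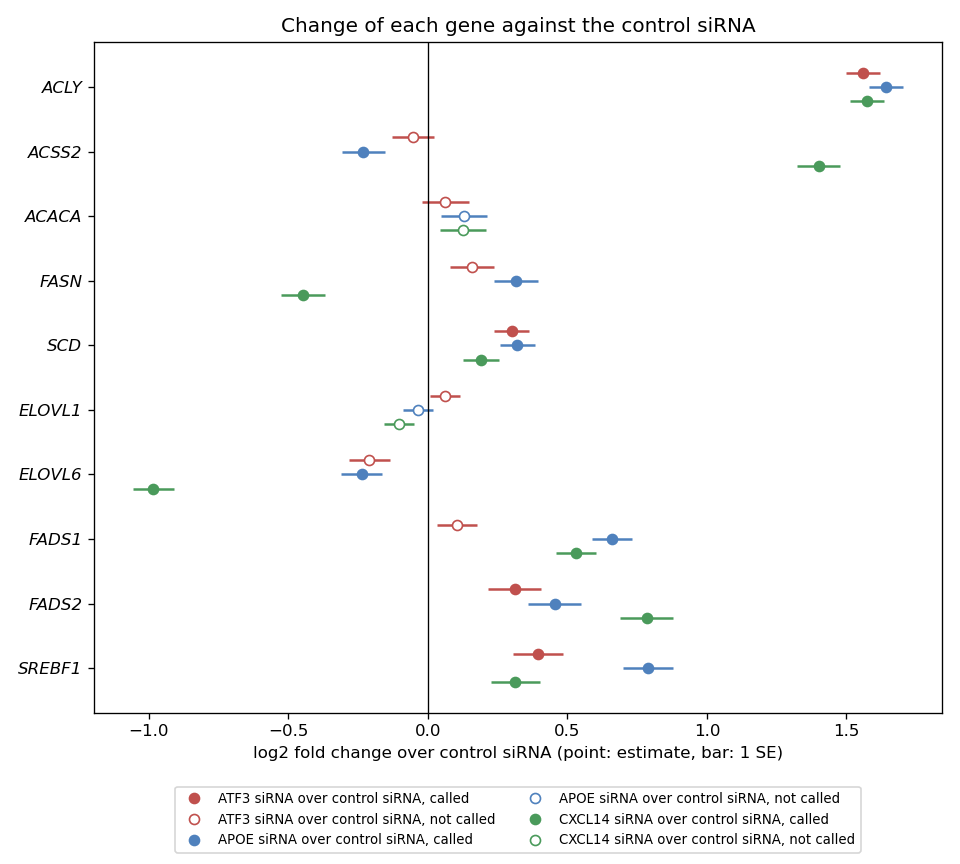
Log2 fold change over the control siRNA (horizontal axis, bar 1 SE) of the 10 genes with ATF3, APOE and CXCL14 siRNA, from 3 libraries a group; filled points were called. ACLY stands at 1.56 to 1.64 with the 3 siRNAs, whereas the green points of CXCL14 siRNA leave the others at ACSS2, FASN and ELOVL6.

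ACLY changed most of the 10 genes with each siRNA and by nearly the same amount. It lies on chromosome 17 (41866908 to 41930542, minus strand, hg38). ACLY had 742, 666 and 745 CPM with ATF3 siRNA, 773, 739 and 772 CPM with APOE siRNA and 701, 738 and 736 CPM with CXCL14 siRNA, against 243, 238 and 250 CPM in control cells. The lowest of the 9 libraries with a targeting siRNA stood far above the highest control library. The mean was 2.94 times the control mean with ATF3 siRNA, 3.12 times with APOE siRNA and 2.98 times with CXCL14 siRNA. On the log2 scale the change was 1.56 ± 0.06 (adjusted p = 3.78e-10), 1.64 ± 0.06 (adjusted p = 1.76e-11) and 1.57 ± 0.06 (adjusted p = 1.11e-11). By size this was the 127th change of all 14920 genes with ATF3 siRNA, the 378th with APOE siRNA and the 807th with CXCL14 siRNA. Set against each other, the 3 siRNAs gave ACLY levels that were not called different. The log2 difference was -0.09 for ATF3 over APOE siRNA (95% interval -0.221 to 0.0513, adjusted p = 0.279), -0.02 for ATF3 over CXCL14 siRNA (-0.151 to 0.121, adjusted p = 0.851) and 0.07 for APOE over CXCL14 siRNA (-0.0663 to 0.206, adjusted p = 0.333). All 3 changes rest on the same control libraries. Higher ACLY with each targeting siRNA and lower ACLY in the control group therefore cannot be told apart.

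ACSS2, the acetate-using enzyme on chromosome 20 (34872146 to 34927962, plus strand), rose with CXCL14 siRNA but not with the others. ACSS2 had 159, 151 and 172 CPM with ATF3 siRNA, 135, 136 and 154 CPM with APOE siRNA and 403, 446 and 469 CPM with CXCL14 siRNA, against 159, 164 and 176 CPM in control cells. The 3 CXCL14 siRNA libraries stood clear of the other 9. The log2 change was 1.40 ± 0.08 with CXCL14 siRNA (adjusted p = 3.58e-10), -0.23 ± 0.08 with APOE siRNA (adjusted p = 0.022) and -0.05 ± 0.08 with ATF3 siRNA (adjusted p = 0.683). The call with APOE siRNA was lost without APOE replicate 1 (-0.197, adjusted p = 0.0874), APOE replicate 2 (-0.207, 0.0725) or control replicate 3 (-0.202, 0.0625), where the log2 change stayed close to its full value. The direct differences were called too, at a log2 value of -1.45 for ATF3 over CXCL14 siRNA (adjusted p = 2.75e-10) and -1.63 for APOE over CXCL14 siRNA (adjusted p = 6.85e-11). Per gene length, as the authors' FPKM give it, the ACLY level was 4.62 ± 0.187 times that of ACSS2 with ATF3 siRNA, 5.56 ± 0.371 times with APOE siRNA and 1.71 ± 0.0866 times with CXCL14 siRNA, against 1.51 ± 0.0562 times in control cells (SD, n = 3 each). The ratio in each of the 9 siRNA libraries exceeded that in every control library, by little with CXCL14 siRNA, where the lowest was 1.62 against a highest of 1.57.

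ACACA and FASN, which catalyse consecutive steps, did not move alike. ACACA (chromosome 17, 37084988 to 37406818, minus strand) had 248, 200 and 212 CPM with ATF3 siRNA, 244, 237 and 210 CPM with APOE siRNA and 233, 241 and 215 CPM with CXCL14 siRNA, against 220, 214 and 198 CPM in control cells. These 4 ranges overlapped, and the log2 change lay within -0.129 to 0.256, -0.0622 to 0.323 and -0.0652 to 0.319 (95% intervals; adjusted p = 0.646, 0.223 and 0.21 in edgeR) with ATF3, APOE and CXCL14 siRNA. FASN (chromosome 17, 82078333 to 82098332, minus strand) had 2910, 2810 and 3410 CPM with ATF3 siRNA, 3340, 3460 and 3380 CPM with APOE siRNA and 1950, 2110 and 1930 CPM with CXCL14 siRNA, against 2470, 2740 and 2960 CPM in control cells. The APOE siRNA libraries were all above and the CXCL14 siRNA libraries all below the control libraries, whereas those with ATF3 siRNA overlapped them. FASN rose by 0.32 ± 0.08 on the log2 scale with APOE siRNA (adjusted p = 0.00379), fell by 0.45 ± 0.08 with CXCL14 siRNA (adjusted p = 0.000148) and differed by 0.16 ± 0.08 with ATF3 siRNA (adjusted p = 0.17). Between siRNAs, FASN was higher by 0.61 in ATF3 than in CXCL14 siRNA cells (adjusted p = 7.06e-06) and by 0.77 in APOE than in CXCL14 siRNA cells (adjusted p = 4.91e-07). The FASN level per length was 19.4 ± 3.03, 20.5 ± 1.70 and 12.1 ± 0.426 times that of ACACA with ATF3, APOE and CXCL14 siRNA, against 18.1 ± 2.54 times in control cells (SD, n = 3 each). Each of the CXCL14 siRNA libraries was below all other libraries in this ratio.

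SCD, stearoyl-CoA desaturase, puts the double bond into saturated chains to give palmitoleate and oleate (chromosome 10, 100347124 to 100364834, plus strand). Its level was 4370, 3770 and 4010 CPM with ATF3 siRNA, 4240, 3960 and 4130 CPM with APOE siRNA and 3850, 3720 and 3690 CPM with CXCL14 siRNA, against 3430, 3230 and 3200 CPM in control cells. All 9 siRNA libraries were above the 3 control libraries, though the increases were small. They came to 0.30 ± 0.06 with ATF3 siRNA (adjusted p = 0.0033), 0.32 ± 0.06 with APOE siRNA (adjusted p = 0.000622) and 0.19 ± 0.06 with CXCL14 siRNA (adjusted p = 0.0168) on the log2 scale. The call with CXCL14 siRNA was lost without CXCL14 replicate 1 (adjusted p = 0.0595), control replicate 2 (0.0694) or control replicate 3 (0.0516). With SCD higher and FASN lower, the SCD level per length was 3.29 ± 0.185 times that of FASN with CXCL14 siRNA, against 2.13 ± 0.271 times in control cells (SD, n = 3 each).

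**Figure D2:**
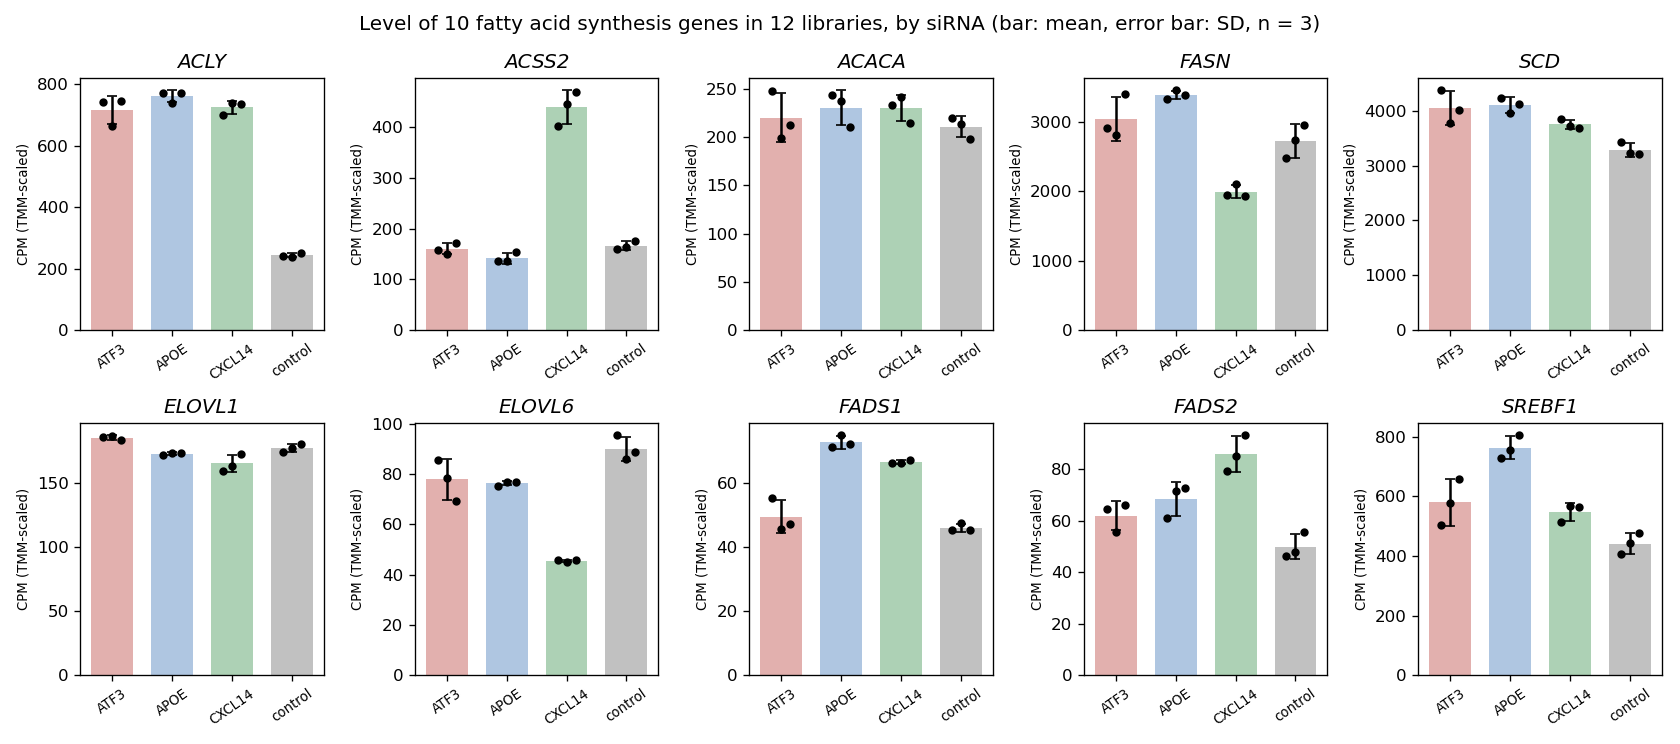
CPM (TMM-scaled, vertical axis from 0, own range per gene) of each gene in the 12 libraries, with ATF3, APOE, CXCL14 and control siRNA from left to right; dots are libraries, bars the mean and error bars the SD of 3 libraries. The control bar is the low one for ACLY, and the CXCL14 siRNA bar is the high one for ACSS2 and the low one for FASN and ELOVL6.

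Of the elongases, ELOVL6 fell and ELOVL1 was nearly level. ELOVL6 lengthens palmitate to stearate (chromosome 4, 110045846 to 110199199, minus strand). It had 85.7, 78.4 and 69.4 CPM with ATF3 siRNA, 75.3, 77.0 and 76.9 CPM with APOE siRNA and 45.9, 45.1 and 45.7 CPM with CXCL14 siRNA, against 95.3, 86.1 and 88.7 CPM in control cells. Every siRNA library was below every control library, and those with CXCL14 siRNA stood at 50.6% of the control mean. The fall on the log2 scale was -0.98 ± 0.07 with CXCL14 siRNA (adjusted p = 1.23e-08) and -0.24 ± 0.07 with APOE siRNA (adjusted p = 0.0143). With ATF3 siRNA the value was -0.21 ± 0.07 and missed the threshold (adjusted p = 0.0528). It passed under 5 of 18 alternatives, whose adjusted p ranged from 0.0139 to 0.204 over all 18, and was 0.0139 without ATF3 replicate 1. Without control replicate 1 the call with APOE siRNA was lost (adjusted p = 0.0693). ELOVL6 was higher by 0.77 with ATF3 than with CXCL14 siRNA (adjusted p = 2.19e-07) and by 0.75 with APOE than with CXCL14 siRNA (adjusted p = 3.04e-07).

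ELOVL1, which makes very long saturated and monounsaturated chains, is on chromosome 1 (43363397 to 43368074, minus strand). It had 185, 187 and 183 CPM with ATF3 siRNA, 172, 173 and 173 CPM with APOE siRNA and 159, 163 and 173 CPM with CXCL14 siRNA, against 174, 177 and 180 CPM in control cells. The ATF3 siRNA libraries were above and the other siRNA libraries below all controls, by margins of a few percent. None of these changes was called: 0.06 ± 0.05 with ATF3 siRNA (adjusted p = 0.454), -0.04 ± 0.05 with APOE siRNA (adjusted p = 0.618) and -0.10 ± 0.05 with CXCL14 siRNA (adjusted p = 0.12). Only the direct difference of ATF3 over CXCL14 siRNA was called, at 0.17 ± 0.05 (adjusted p = 0.0164). It was lost with library size alone (adjusted p = 0.311), without the filter (0.109), with only the groups compared (0.0743) and without CXCL14 replicate 1 (0.0669) or 2 (0.0572). Per length the ELOVL1 level was 6.97 ± 0.689, 6.58 ± 0.0488 and 10.5 ± 0.444 times that of ELOVL6 with ATF3, APOE and CXCL14 siRNA, against 5.74 ± 0.361 times in control cells (SD, n = 3 each).

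The front-end desaturases FADS1 and FADS2, which act on polyunsaturated chains, both rose with APOE and CXCL14 siRNA. FADS1 had 55.4, 45.8 and 47.3 CPM with ATF3 siRNA, 71.2, 75.0 and 72.2 CPM with APOE siRNA and 66.2, 66.3 and 67.4 CPM with CXCL14 siRNA, against 45.2, 47.6 and 45.4 CPM in control cells. The APOE and CXCL14 siRNA libraries were above all others, and the ATF3 siRNA libraries overlapped the controls. The log2 change was 0.66 ± 0.07 with APOE siRNA (adjusted p = 1.86e-06), 0.53 ± 0.07 with CXCL14 siRNA (adjusted p = 1.02e-05) and 0.11 ± 0.07 with ATF3 siRNA (adjusted p = 0.34). FADS1 was lower with ATF3 siRNA than with APOE siRNA, by -0.55 (adjusted p = 1.35e-05), and than with CXCL14 siRNA, by -0.43 (adjusted p = 9.37e-05). FADS2 had 64.3, 55.4 and 65.9 CPM with ATF3 siRNA, 60.9, 71.5 and 72.8 CPM with APOE siRNA and 79.3, 85.2 and 93.0 CPM with CXCL14 siRNA, against 46.2, 47.8 and 55.5 CPM in control cells. The CXCL14 siRNA libraries were the highest, and 1 ATF3 siRNA library fell within the control range. FADS2 rose by 0.78 ± 0.09 with CXCL14 siRNA (adjusted p = 2.92e-06), 0.46 ± 0.10 with APOE siRNA (adjusted p = 0.00102) and 0.31 ± 0.10 with ATF3 siRNA (adjusted p = 0.0297). The last call was lost without ATF3 replicate 1 (adjusted p = 0.0756) or 3 (0.0965) and without control replicate 1 (0.128) or 2 (0.11). Directly compared, FADS2 was lower by -0.47 with ATF3 than with CXCL14 siRNA (adjusted p = 0.000442) and by -0.33 with APOE than with CXCL14 siRNA (adjusted p = 0.00654).

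FADS1 (chromosome 11, 61799625 to 61829318, minus strand) and FADS2 (61792980 to 61867354, plus strand) lie on opposite strands and overlap over 29694 bases. Their exons share 490 bases, 4.79% of the FADS1 and 4.44% of the FADS2 exon bases. Whether counting used the strand is not stated, so reads there may belong to either gene. FADS2 was 1.16 ± 0.114, 0.871 ± 0.072 and 1.19 ± 0.0849 times as high as FADS1 per length with ATF3, APOE and CXCL14 siRNA, against 1.00 ± 0.112 times in control cells (SD, n = 3 each). With APOE siRNA the 3 ratios, 0.794 to 0.936, straddled the lowest control ratio of 0.931. In order of replicate number they were 0.794, 0.884 and 0.936, against 0.949, 0.931 and 1.13 in control cells. Each was below the control ratio of its own number, though what a number marks is not stated.

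SREBF1, the gene of the regulator (chromosome 17, 17810399 to 17837002, minus strand), rose with each siRNA and most with APOE siRNA. It had 502, 579 and 660 CPM with ATF3 siRNA, 728, 757 and 805 CPM with APOE siRNA and 514, 567 and 564 CPM with CXCL14 siRNA, against 405, 443 and 476 CPM in control cells. All 9 siRNA libraries were above the controls, and the APOE siRNA libraries were above all others. The log2 change was 0.40 ± 0.09 with ATF3 siRNA (adjusted p = 0.00514), 0.79 ± 0.09 with APOE siRNA (adjusted p = 2.57e-06) and 0.31 ± 0.09 with CXCL14 siRNA (adjusted p = 0.00656). SREBF1 was lower by -0.40 with ATF3 than with APOE siRNA (adjusted p = 0.00203) and higher by 0.48 with APOE than with CXCL14 siRNA (adjusted p = 0.000235). APOE siRNA gave the most SREBF1 RNA, and also the highest mean of ACLY, ACACA, FASN, SCD and FADS1. Against the other targeting siRNAs, only FASN over CXCL14 siRNA and FADS1 over ATF3 siRNA were called among these genes. ACLY and SCD were called only against the control. ACACA was called in no comparison, and averaged 230.4 CPM with APOE and 230 CPM with CXCL14 siRNA (adjusted p = 0.978 in edgeR). ACSS2 and FADS2 were highest with CXCL14 siRNA, ELOVL1 with ATF3 siRNA and ELOVL6 in control cells. Whether these levels follow SREBF1 was not tested. Gene counts do not separate the SREBP-1a and SREBP-1c transcripts, and RNA says nothing of cleaved protein. Its exons share 556 bases, 6.92%, with those of RAI1 on the other strand.

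In direct comparisons of the siRNA groups, the shares of the 10 genes that were called lay near or below those of all genes. For ATF3 over CXCL14 siRNA 3 of the 10 genes were higher and 3 lower, beside 28.4% and 25.3% of all genes, and for APOE over CXCL14 siRNA 3 were higher and 2 lower, beside 28.9% and 26.6%. For ATF3 over APOE siRNA 0 were higher and 2, FADS1 and SREBF1, lower in edgeR, beside 20.3% and 17.9% of all genes. At an unadjusted p under 0.05, 1 gene was higher there, and DESeq2 called 0. With library sizes that were not TMM-scaled, the median of all genes moved by -0.103 for ATF3 over CXCL14 siRNA and -0.122 for APOE over CXCL14 siRNA. The share of all calls that were higher then was 41.5% in place of 52.9% and 39.6% in place of 52.0%, and 44.0% in place of 55.2% for ATF3 siRNA over the control. No called difference of the 10 genes changed its sign in any alternative run.

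Per gene length, SCD and FASN had the highest levels of the 10 genes in every group. SCD averaged 741, 749 and 692 FPKM with ATF3, APOE and CXCL14 siRNA, against 606 FPKM in control cells, and FASN 319, 354 and 211 FPKM, against 287 FPKM. In control cells the order went on with ELOVL1 (69.7 FPKM), SREBF1 (54.2), ACLY (46.1), ACSS2 (30.5), ACACA (15.98), ELOVL6 (12.2), FADS2 (4.46) and FADS1 (4.45). Neighbours in that order did not overlap over the 3 control libraries, except FADS2 and FADS1. ACLY was the third with each siRNA, at 135 FPKM with ATF3, 143 with APOE and 137 with CXCL14 siRNA, clear of the gene before and after it. With CXCL14 siRNA ACSS2 was the fourth, at 80.7 FPKM, and ELOVL6 last, at 6.17 FPKM. The 10 genes summed to 9147 ± 538 CPM with ATF3 siRNA, 9788 ± 95.4 CPM with APOE siRNA and 8058 ± 107 CPM with CXCL14 siRNA, against 7438 ± 175 CPM in control cells (SD, n = 3 each). SCD and FASN were 77.5%, 76.6% and 71.4% of that sum with ATF3, APOE and CXCL14 siRNA, against 80.8% in control cells.

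**Figure D3:**
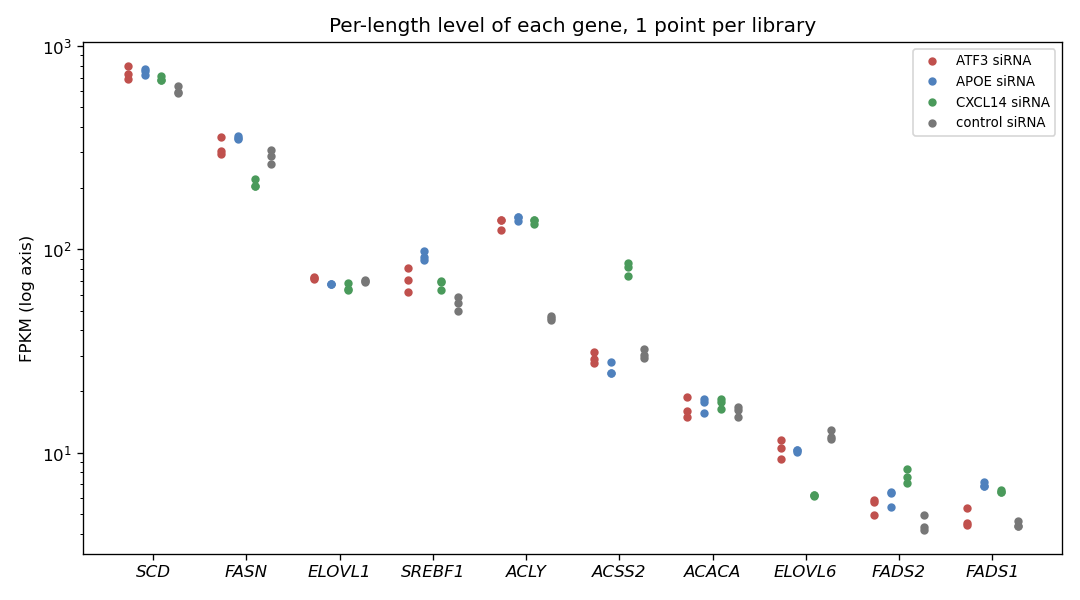
FPKM (log axis) of each gene in each library, ordered by the control mean, with ATF3, APOE, CXCL14 and control siRNA from left to right within a gene. ACLY lies below SREBF1 in control cells (46.1 against 54.2 FPKM) and above it with each targeting siRNA, and ACSS2 lifts away from the other groups with CXCL14 siRNA.

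Markers of keratinocyte state also differed between the groups. Of 9 tested genes of differentiating keratinocytes, 6 rose and 0 fell with ATF3 siRNA, 9 rose and 0 fell with APOE siRNA, and 2 rose (SBSN and FLG) and 2 fell (IVL and SPRR1B) with CXCL14 siRNA. Of all genes, 11.2%, 22.3% and 27.4% were called higher with ATF3, APOE and CXCL14 siRNA, and 9.14%, 22.5% and 28.4% lower. The counts of this list with CXCL14 siRNA lay near or below these shares, and say nothing particular of it. The list of 10, whose sum is mostly IVL, TGM1, SPRR1B and KRT10, had 246 to 337 CPM with ATF3 siRNA, 289 to 359 CPM with APOE siRNA and 71.4 to 78.8 CPM with CXCL14 siRNA, against 84.2 to 109 CPM in control cells. The 10 general keratinocyte markers summed to 33400 to 36400 CPM with ATF3 siRNA, 41200 to 43900 CPM with APOE siRNA and 21900 to 23000 CPM with CXCL14 siRNA, against 32600 to 35400 CPM in control cells. Of these 10, 2 rose and 2 fell with ATF3 siRNA, 6 rose and 2 fell with APOE siRNA, and 1 (DSG3) rose and 9 fell with CXCL14 siRNA. Among the groups, FASN, ELOVL1 and ELOVL6 were lowest with CXCL14 siRNA, and ACSS2 and FADS2 were highest with it. The defining keratins KRT5 and KRT14 averaged 12800 and 8558 CPM with ATF3 siRNA, 17950 and 10510 CPM with APOE siRNA and 8894 and 3574 CPM with CXCL14 siRNA, against 11760 and 7297 CPM in control cells. The part of keratinocyte state in these results was not tested. Markers of lipid-rich cells were mostly at or near 0: 3 of 7 adipocyte markers, including ADIPOQ, and 3 of 8 sebocyte markers had no counts in any library. The adipocyte list summed to 13.2 to 16.8, 15.2 to 16.9 and 24.6 to 26.3 CPM with ATF3, APOE and CXCL14 siRNA, against 8.22 to 12.6 CPM in control cells, and the sebocyte list to 75.1 to 93.6, 66.1 to 72.2 and 67.8 to 80.6 CPM, against 103 to 114 CPM. PLIN4 carried most of the adipocyte sum, and SOAT1 and FAR2 nearly all of the sebocyte sum. The 6 fibroblast markers, nearly all of it COL1A1, summed to 32.5 to 40.8, 74.0 to 87.7 and 14.6 to 17.7 CPM with ATF3, APOE and CXCL14 siRNA, against 25.2 to 34.1 CPM. Of the 2 tested there, COL1A1 and DCN both rose with APOE siRNA (1.48 and 2.31, adjusted p = 5.53e-08 and 0.0134), and COL1A1 fell and DCN rose with CXCL14 siRNA (-0.92 and 2.55, adjusted p = 1.16e-05 and 0.00417). DCN stayed under 1 CPM on average in every group. Melanocyte, immune and endothelial lists summed to at most 2.64, 0.372 and 1.58 CPM in any library. Their part in the results was not tested.

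The wider pathway was followed in 8 lists of 76 genes, of which 73 were tested. With ATF3 siRNA 11 rose and 7 fell against the control, with APOE siRNA 24 rose and 26 fell, and with CXCL14 siRNA 32 rose and 18 fell. Over all genes the share called higher was 11.2%, 22.3% and 27.4%, and the share called lower 9.14%, 22.5% and 28.4%, in the same order of siRNAs. Of the 73, the shares with ATF3 siRNA and the share lower with CXCL14 siRNA lay near these, and say nothing particular of the lists. The shares with APOE siRNA and the share higher with CXCL14 siRNA lay above them, and this excess was not tested. A share near these in a single list says nothing particular of it either. The median log2 fold change of the 73 was 0.00154, -0.0394 and 0.146, below that of the 10 genes in each case. Both sets were chosen with earlier results of these data known, and this difference was not tested.

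Genes that supply citrate, acetyl-CoA or NADPH moved in both directions. Of 10 tested, 1 rose and 0 fell with ATF3 siRNA, 5 rose and 3 fell with APOE siRNA, and 5 rose and 2 fell with CXCL14 siRNA. CRAT, a carnitine acetyltransferase, rose with each siRNA (0.55, 0.59 and 0.94 in log2 with ATF3, APOE and CXCL14 siRNA; adjusted p = 0.00757, 0.00173 and 1.19e-05). The mitochondrial citrate carrier SLC25A1 rose with CXCL14 siRNA by 0.71 (adjusted p = 9.85e-05), and so did ACACB, the carboxylase of the mitochondrial surface, by 1.23 (adjusted p = 6.06e-06). Of the NADPH sources, malic enzyme ME1 fell by -0.95 with CXCL14 siRNA (adjusted p = 1.29e-08), whereas IDH1 rose with APOE siRNA by 0.62 (adjusted p = 8.86e-06).

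Of 13 tested genes of SREBP, LXR and ChREBP control, 2 rose and 3 fell with ATF3 siRNA, 4 rose and 5 fell with APOE siRNA, and 6 rose and 2 fell with CXCL14 siRNA. INSIG1, which holds SREBP in the endoplasmic reticulum and is itself an SREBP target, fell by -1.16 with ATF3 siRNA (adjusted p = 5.89e-09) and -0.99 with APOE siRNA (adjusted p = 3.89e-09), and had -0.08 with CXCL14 siRNA (adjusted p = 0.304). INSIG2, its paralog, fell by -0.34 (adjusted p = 0.00806) and -0.59 (adjusted p = 3.09e-05) with ATF3 and APOE siRNA. The proteases that release SREBP moved apart. MBTPS1 fell with APOE siRNA by -0.86 (adjusted p = 1.65e-08). It rose with ATF3 siRNA by 0.25 (adjusted p = 0.00795) and with CXCL14 siRNA by 0.44 (adjusted p = 1.22e-05), whereas MBTPS2 fell with CXCL14 siRNA by -1.51 (adjusted p = 1.28e-09). NR1H2, which encodes LXR-beta, rose by 0.99 with CXCL14 siRNA (adjusted p = 1.38e-07).

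Of 10 cholesterol genes that SREBP also controls, 3 rose and 0 fell with ATF3 siRNA, 2 rose and 4 fell with APOE siRNA, and 7 rose and 2 fell with CXCL14 siRNA. MVD, a mevalonate pathway decarboxylase, rose by 1.52 with CXCL14 siRNA (adjusted p = 1.17e-10) and by 0.27 with ATF3 siRNA (adjusted p = 0.0199). SQLE, squalene epoxidase, fell by -1.53 with CXCL14 siRNA (adjusted p = 1.53e-11). With APOE siRNA HMGCS1 fell by -1.26 (adjusted p = 1.81e-08).

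**Figure D4:**
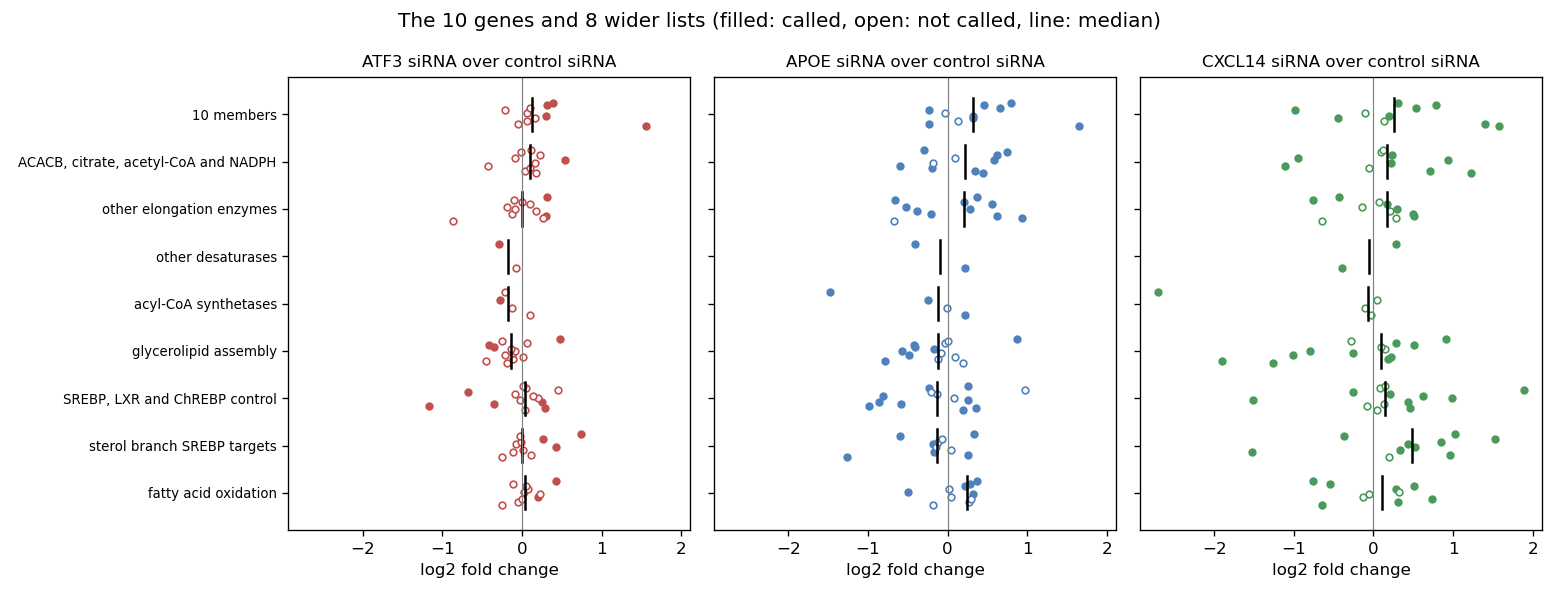
Log2 fold change over the control siRNA (horizontal axis) of the 10 genes and of 8 wider lists (rows), with ATF3, APOE and CXCL14 siRNA in the left, middle and right panels; each point is a gene, filled where called, and the black line is the median of the row. Filled points are fewest with ATF3 siRNA (11 higher and 7 lower of 73 in the wider lists), and in the top row ACLY stands apart from the other 9 genes with ATF3 and APOE siRNA.

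Among the other elongation enzymes, 2 rose and 0 fell of 11 with ATF3 siRNA, 6 rose and 4 fell with APOE siRNA, and 4 rose and 2 fell with CXCL14 siRNA. ELOVL4, which makes the longest chains of skin ceramides, rose by 0.30, 0.61 and 0.51 with ATF3, APOE and CXCL14 siRNA (adjusted p = 0.0417, 7.82e-05 and 0.000281). TECR, the last reductase of the elongation cycle, rose by 0.32 and 0.36 with ATF3 and APOE siRNA (adjusted p = 0.00753 and 0.000956) and fell by -0.43 with CXCL14 siRNA (adjusted p = 0.000138). Of the 2 other desaturases tested, FADS3 fell with ATF3 siRNA by -0.28 (adjusted p = 0.0151) and with APOE siRNA by -0.40 (adjusted p = 0.000406), and rose with CXCL14 siRNA by 0.28 (adjusted p = 0.00478). SCD5, the second stearoyl-CoA desaturase, rose with APOE siRNA by 0.22 (adjusted p = 0.00878) and fell with CXCL14 siRNA by -0.39 (adjusted p = 4.98e-05).

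Downstream of synthesis, glycerolipid assembly genes numbered 1 higher and 2 lower of 13 with ATF3 siRNA, 1 higher and 6 lower with APOE siRNA, and 5 higher and 5 lower with CXCL14 siRNA. DGAT2, which makes triglyceride, rose by 0.48, 0.87 and 0.92 with ATF3, APOE and CXCL14 siRNA (adjusted p = 0.0352, 0.000169 and 6.05e-05). GPAM, the mitochondrial acyltransferase of the first step, fell by -1.26 with CXCL14 siRNA (adjusted p = 2.47e-08), and AGPAT2 of the second step by -1.02 (adjusted p = 5.67e-08). Of 4 acyl-CoA synthetases tested, 0 rose and 1 fell with ATF3 siRNA, 1 rose and 2 fell with APOE siRNA, and 0 rose and 1, ACSL5, fell with CXCL14 siRNA (-2.70, adjusted p = 0.00151). Of 10 fatty acid oxidation genes, 2 rose and 0 fell with ATF3 siRNA, 4 rose and 1 fell with APOE siRNA, and 4 rose and 3 fell with CXCL14 siRNA. CPT1A, which admits fatty acids to the mitochondrion, fell by -0.64 with CXCL14 siRNA (adjusted p = 0.000163).

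For the 3 genes with the widest group range, the protein-coding genes with the most similar levels over the 12 libraries were found by the root-mean-square difference of centred log2 CPM. Nearest to ACLY were BCAM (0.195), TMEM87B (0.211) and STC2 (0.245). BCAM, a laminin receptor, averaged 35.8, 34.7 and 34.4 CPM with ATF3, APOE and CXCL14 siRNA, against 14.03 CPM in control cells, the step that ACLY also showed. Nearest to ACSS2 were MVD (0.122), AXL (0.123) and SLC25A42 (0.127). MVD averaged 157, 124 and 374 CPM with ATF3, APOE and CXCL14 siRNA, against 130 CPM in control cells. Nearest to ELOVL6 were CD44 (0.0573), FUBP1 (0.0685) and RAP1GDS1 (0.0756), and CD44, the hyaluronan receptor, averaged 670, 620 and 394 CPM, against 749 CPM. These distances describe the 12 libraries and carry no test.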

How the data were processed

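The authors deposited raw counts per gene with gene lengths, and FPKM per library and as group means. Per the submitters' processing notes, the build was hg38 and the tools were HISAT2 2.0.5 and featureCounts 1.5.0-p3; the annotation and strand setting are not given in the sources used here, and per the labels' protocols the library may be directional or not. Each deposited FPKM column equalled the count divided by gene length and by a library size proportional to the DESeq2 size factor. Target prefix and replicate number assigned each column to its sample, with 0 columns left unmapped, and the authors' group means equalled the means of the mapped libraries.

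Counts were filtered with filterByExpr, scaled by TMM and fitted by quasi-likelihood in edgeR 4.0.16 (R 4.3.3) with 1 term per group over all 12 libraries, which gave 6 comparisons. The fit was tested on simulated data. An SE is the log2 fold change over the square root of F, and 95% intervals use the residual degrees of freedom of 12 libraries in 4 groups. A count of 0 allows up to 3 counts, for counting error only. Alternatives were library size alone, DESeq2 size factors, only the groups compared, no filter, a replicate block, the Wald test of DESeq2 1.42.0 and leaving out each library. All 10 genes are named throughout. Of each wider list, called genes are named, at most 4 per comparison by the smallest adjusted p, and only some of these appear, since some are not reported here. The most similar genes are the 3 nearest in log2 CPM with a prior count of 2. The 10 genes and the lists were chosen with earlier results of these data known. Promoter sequences come from RefSeq on GRCh38.p14. Overlaps between genes come from GENCODE release 29, in which all 10 genes have the coordinates of the files.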

Additional observations from a re-analysis of the deposited data

How the results depend on the processing

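Each of 60 log2 fold changes of the 10 genes was recomputed under 18 alternatives. Of 33 called differences, 28 kept their call and 5 lost it under some alternative (FADS2 with ATF3 siRNA, ACSS2 and ELOVL6 with APOE siRNA, SCD with CXCL14 siRNA, and ELOVL1 for ATF3 over CXCL14 siRNA), and 0 reversed. Of 27 differences not called, 5 were called under some alternative and 9 changed sign. With library size alone these were SREBF1 for ATF3 over CXCL14 siRNA (-0.0229) and, for APOE over CXCL14 siRNA, ACLY (-0.0529), ACACA (-0.119) and ELOVL1 (-0.0568). ACACA for APOE over CXCL14 siRNA, at 0.00316, was also -0.0128 with DESeq2 size factors, -0.0128 with the Wald test, -0.00563 with no filter, -1.53e-05 with only the groups compared, and -0.0423 to 0.0692 over the fits that leave out a library. Over those fits, ACACA ran from -0.038 to 0.129 for ATF3 siRNA over the control and from -0.169 to 0.00434 for ATF3 over CXCL14 siRNA. ELOVL6 (-0.0412 to 0.103) and SCD (-0.0732 to 0.0286) changed sign for ATF3 over APOE siRNA, and SREBF1 (-0.0178 to 0.167) and ACLY (-0.0484 to 0.0389) for ATF3 over CXCL14 siRNA. The cause was not tested.

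The count of genes that fell with ATF3 siRNA, 0, was 1 (ELOVL6) with DESeq2 size factors, library size alone, the Wald test and the replicate block, and 0 to 1 without 1 library. With APOE siRNA the 2 that fell were 1 to 2 without 1 library. For ATF3 over APOE siRNA the 0 higher genes were 1 (ACSS2) with library size alone and the replicate block, and 0 to 1 without 1 library. Over all genes, calls with ATF3 siRNA against the control numbered 3041, and 1916 to 3003 without 1 library, the lowest without control replicate 1.

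Replicate numbers are shared between groups. The correlation of deviations from the group means was -0.0208 to 0.234 for 18 same-numbered pairs (11 over 0.1) and -0.238 to 0.1 for 36 others, and 10 of 12 libraries correlated best with one of their own number. This is a hint from the data that same-numbered libraries share something; the labels do not say what a number marks and not every same-numbered pair was over 0.1, so the block was kept as an alternative. The replicate block gave 4138, 7436 and 8970 called genes with ATF3, APOE and CXCL14 siRNA against the control, in place of 3041, 6681 and 8327. It lost no call of the 10 genes and added 3: ELOVL6 with ATF3 siRNA (-0.21, adjusted p = 0.0191), ACSS2 for ATF3 over APOE siRNA (0.18, adjusted p = 0.00992) and SCD for APOE over CXCL14 siRNA (0.129, adjusted p = 0.0379).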
